A study of Mus musculus with 2 samples.

Results

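The genes described here encode the extracellular matrix, the protein scaffold around cells, and the enzymes that build or cut it. They are 51 of the 2000 genes in the deposited matrix, taken by name: symbols that start with Col or Mmp followed by a digit, or with Adam, Lama, Lamb, Lamc, Timp, Lox or Thbs, together with Fn1, Sparc, Tgfbi and Vcan. By role they were 7 fibrillar collagen genes, 11 basement membrane genes, 5 other collagen genes, 5 glycoprotein genes, 3 cross-linking enzymes, 9 matrix metalloproteinases (MMPs), 3 MMP inhibitors (TIMPs), 4 ADAM genes and 4 ADAMTS genes. No cut on a measured value was used to choose them, but they were chosen with earlier results of these data known.

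Pancreatic adenocarcinoma is known for a dense matrix, much of it made by fibroblasts. Fibrillar collagens are cut and trimmed outside the cell, cross-linked by lysyl oxidases and bound by glycoproteins such as fibronectin, while epithelial cells rest on a basement membrane of collagen IV and laminins. MMPs and ADAMTS enzymes cut these proteins, TIMPs block MMPs, and macrophages and neutrophils carry MMPs of their own.

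The tumors were grown in mice by placing cells of MT4, primary pancreatic adenocarcinoma organoids of the KPC mouse model, into the pancreas, and were taken on day 14. The fl/fl library came from C57/BL6 Ahr fl/fl mice, in which Ahr, the aryl hydrocarbon receptor gene, carries recombination sites and is intact. The cKO library came from mice with the same floxed alleles and LysM-Cre, a recombinase driven from the Lyz2 locus that acts mainly in macrophages, monocytes and neutrophils, so that other cells, tumor cells and fibroblasts included, are expected to keep Ahr. Tumors of 3 mice were pooled for each library after digestion with collagenase and DNase, live cells were sorted with DAPI, and 10000 cells were loaded per library. With 1 library per genotype there is no replicate: nothing below was tested between genotypes, and each difference between the libraries is a difference between 2 pools of tumors. Collagenase digestion also decides which cells come free of the matrix, and that cannot be told apart from which cells the tumors held.

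The fl/fl library held 5196 cells and the cKO library 4577. The deposited values are scaled per gene, and the values of the cKO library appear to have been corrected toward the fl/fl library. Whole counts of unique molecular identifiers (UMIs, 1 per captured RNA molecule) could be recovered from the scaled values of the fl/fl library for 48 of the 51 members, but not for Lama3, Adamdec1 and Col12a1 and not for the cKO library. The recovered total was a median of 2003.5 UMIs per fl/fl cell, with 5th and 95th percentiles of 558 and 14956. Levels below are UMIs of a gene per 10000 UMIs of the fl/fl cells named, with exact Poisson 95% intervals, and shares of cells above zero carry exact binomial (Clopper-Pearson) 95% intervals. Both cover counting error only. Of 10358 member values above zero, 933 stood at the cap of the deposited scale and count as their smallest possible number, so the levels are lower bounds and the share of a gene's UMIs held by a class with many capped values is understated.

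The libraries shared 656 cell barcodes, which were 12.6% of all fl/fl cells and 14.3% of all cKO cells. Pairs with the same barcode had a median correlation over genes of 0.43, against 0.07 for cells with different barcodes, and 94.7% of the pairs fell in the same cluster. Their reason was not tested. They made up 326 of 342 fl/fl cells and 337 of 339 cKO cells of cluster 1, an unnamed cluster led by Vim, Atf3 and Cd14, and 208 of 337 and 204 of 310 cells of cluster 2, a monocyte cluster. In the Fibroblast-like, Tumor epithelial-like, Macrophage-like and neutrophil classes at most 11 cells per library were shared, and values without the shared barcodes are given where they touch a result.

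Ahr itself was above zero in 11.7% of fl/fl cells, in 20.5% of Macrophage-like, 15.9% of Monocyte-like and 0.72% of Mature neutrophil-like cells. Its mean scaled value in the cKO library was 0.10 above that of the fl/fl library in Macrophage-like cells and 0.11 above it in Monocyte-like cells. Reads at the end of the transcript can lie outside a deleted part, and the cKO values were corrected, so these values check neither the labels nor the deletion. Lyz2, whose locus drives the Cre, was above zero in 96.5% of Monocyte-like, 88.2% of Macrophage-like, 97.6% of Immature neutrophil-like and 36.6% of Mature neutrophil-like fl/fl cells.

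Clusters were named from marker lists, without the 51 members in the clustering. The Fibroblast-like class was 1 cluster of 55 fl/fl cells and 9 cKO cells, led by Serpinh1 and Dcn, with 18 of 18 measured fibroblast markers above zero in at least 5% of its fl/fl cells. Their summed level was 96.9 UMIs per 10000. In the same cells 6 of 11 erythroid markers reached 5% of cells, with a summed level of 39.5, as did 9 of 15 epithelial markers with a summed level of 8.19. In Tumor epithelial-like fl/fl cells the 15 epithelial markers had a summed level of 109. There 7 of 18 fibroblast markers reached 5% of cells, with a summed level of 18.3. So did 8 of 14 macrophage markers, a list that includes Spp1, with 63.8. Possible doublets, cells with markers of 2 cell families, were 64 of those 760 cells and 7 of the 55 Fibroblast-like cells. The part of such RNA in the values below was not tested.

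Most matrix genes were highest in the Fibroblast-like cells of the fl/fl library, and smaller groups were highest in macrophages, tumor cells or neutrophils. The class with the highest mean scaled value was Fibroblast-like for 31 of the 51 genes, Macrophage-like for 7, Tumor epithelial-like for 7, Mature neutrophil-like for 3, and B-lineage-like, DC-like (dendritic cell) and Monocyte-like for 1 each. Members above zero in at least 5% of cells numbered 41 in Fibroblast-like, 21 in Tumor epithelial-like, 11 in Macrophage-like, 9 in Monocyte-like, 6 in DC-like, in Erythroid-like and in Mature neutrophil-like, 5 in Immature neutrophil-like, 3 in T cell-like, 2 in NK-like and 1 in B-lineage-like cells. Over all 2000 genes the same limit was passed by 63.5% in Fibroblast-like, 60.6% in Tumor epithelial-like and 35.5% in Macrophage-like cells. It was passed by 28.4% in Monocyte-like, 35% in DC-like, 36.1% in Erythroid-like, 16.3% in Mature neutrophil-like, 31.2% in Immature neutrophil-like, 32.5% in T cell-like, 24.2% in NK-like and 17.9% in B-lineage-like cells. The median share over the 51 members was 30.9% in Fibroblast-like cells, where the median over all genes was 10.9%, and 1.84% in Tumor epithelial-like cells, where it was 9.47%.

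**Figure D1:**
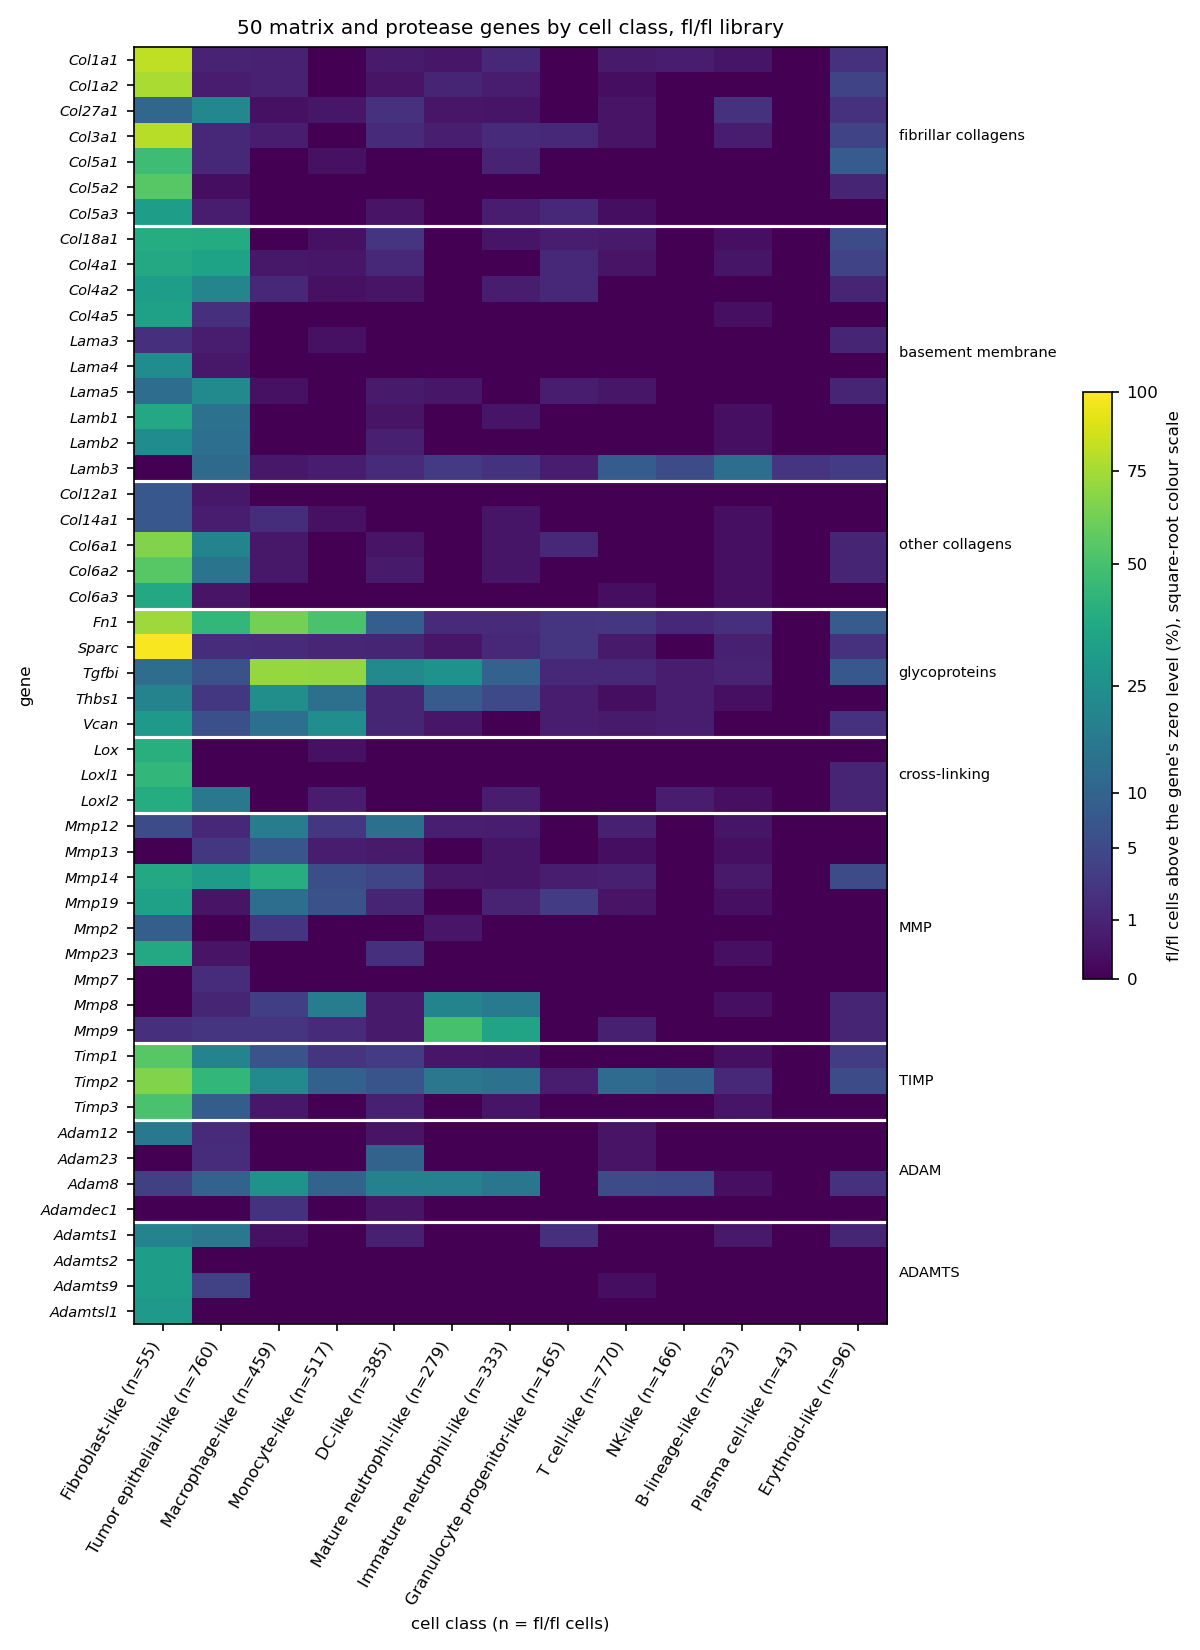
Share of fl/fl cells above zero (colour, percent, square-root scale) for 50 of the genes (rows, grouped by role) in 13 cell classes (columns, with the number of cells). Most collagen and cross-linking genes are bright in the Fibroblast-like column, Fn1 and Tgfbi are bright across the macrophage and monocyte columns, and Mmp8 and Mmp9 in the neutrophil columns.

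The fibrillar collagens build the fibers of connective tissue. Col1a1 and Col1a2, the chains of type I collagen, were above zero in 81.8% and 76.4% of the 55 Fibroblast-like cells, and Col3a1, the chain of type III collagen, in 80.0%. In B-lineage-like cells, which should lack them, the shares were 0.32%, 0% (0 of 623 cells, upper 95% bound 0.59%) and 0.64%, at median totals of 2201 UMIs against 2041 in the Fibroblast-like cells. All 3 genes were found together in 38 of the 55 cells and none of them in 4, and no other fl/fl cell had all 3. At least 1 of the 3 was found in 88 of the 5141 other cells, or 1.71%.

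The Fibroblast-like cells were 1.06% of the fl/fl cells and held 2.14% of all UMIs, but 97.9% of the UMIs of Col1a2, 95.5% of Col1a1 and 93.1% of Col3a1. The minor fibrillar chains that join them in fibers followed, with 98.1% of 154 UMIs for Col5a2, 73.6% of 110 for Col5a1 and 75.5% of 49 for Col5a3. Col27a1 did not share this pattern. This fibrillar collagen gene was above zero in 21.4% of Tumor epithelial-like and 10.9% of Fibroblast-like cells, and the tumor cells held 87.3% of its 408 UMIs.

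The promoter of Col3a1 is printed because this gene was among those that separated the Fibroblast-like cells from all others. It is 300 bases on the forward strand of GRCm38.p6 from RefSeq, chr1:45311288-45311587, 250 before and 50 from the listed start, and the capitals mark the letters TATAAA, the core of the TATA box, 117 bases before that start.
Col3a1: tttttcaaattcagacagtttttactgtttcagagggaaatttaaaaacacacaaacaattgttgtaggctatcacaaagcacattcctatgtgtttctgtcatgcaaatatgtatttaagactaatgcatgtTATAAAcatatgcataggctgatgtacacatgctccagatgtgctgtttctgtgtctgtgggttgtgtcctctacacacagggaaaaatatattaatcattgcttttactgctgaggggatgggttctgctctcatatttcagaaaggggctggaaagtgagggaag
Of the members, 33 have 39 promoters in that table and 18 have no entry. TATAAA on either strand was present in 6 of the 39, and in 13.6% of all 32851 promoters. A match of letters is a description, not a site.

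Type VI collagen, which forms fine filaments around cells, was found in both fibroblasts and tumor cells. Col6a1 was above zero in 65.5% of Fibroblast-like cells, at 6.82 UMIs per 10000 (6.08 to 7.62), and in 20.4% of Tumor epithelial-like cells, at 1.32 (1.22 to 1.43). Col6a2 showed the same order, at 54.5% and 14.7% of cells, while Col6a3 was above zero in 36.4% of Fibroblast-like and 0.26% of Tumor epithelial-like cells. The tumor cells held 65.8% of the UMIs of Col6a1 and 60.1% of those of Col6a2, but 3.23% of the 62 UMIs of Col6a3. Col14a1 and Col12a1, collagens that sit on fibril surfaces, were each above zero in 4 Fibroblast-like cells, and Col14a1 also in 8 Macrophage-like and 5 Tumor epithelial-like cells.

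The lysyl oxidases cross-link collagen and elastin. Lox and Loxl1 were above zero in 22 and 24 of the 55 Fibroblast-like cells, which held 97.1% and 98.5% of their UMIs, 35 and 66 in all. Loxl2, a member of the same family, differed from them: it was above zero in 38.2% of Fibroblast-like and 16.2% of Tumor epithelial-like cells, and the tumor cells held 75.9% of its 323 UMIs. Neither Lox nor Loxl1 was found in any of the 760 Tumor epithelial-like cells.

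For most of the basement membrane genes described here, most UMIs came from tumor cells, a class with 21.9% of all UMIs. Per 10000 UMIs the 10 genes counted summed to 7.46 (7.21 to 7.71) in Tumor epithelial-like and 7.81 (7.02 to 8.67) in Fibroblast-like cells. The highest mean scaled value was in Fibroblast-like cells for 6 of the 11 genes, in Tumor epithelial-like for 4 and in B-lineage-like for 1. Col4a1 and Col4a2, which lie head to head on chromosome 8 and encode the 2 common chains of collagen IV, had 85.4% and 85.5% of their UMIs in Tumor epithelial-like cells and 11.5% each in Fibroblast-like cells. Col18a1, the gene for the collagen that releases endostatin, had 92.6% there, and the laminin chains Lama5, Lamb1 and Lamb2 had 93.7%, 78.9% and 82.2%. Lama4, a laminin chain of vessels and mesenchyme, went the other way, with 82.1% of 28 UMIs in Fibroblast-like cells, and Col4a5 had 61.9% of 42 there. Lama3 was found in 8 fl/fl cells.

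In the Tumor epithelial-like class, cluster 3, led by Clu, Krt19 and Krt8, held 426 fl/fl cells with a median of 3822.5 UMIs, and cluster 13, led by Lmna, S100a6 and Krt18, held 264 with 819. Col4a1 was above zero in 51.6% of cluster 3 and 9.85% of cluster 13, but its level, which takes depth into account, was 1.84 UMIs per 10000 (1.72 to 1.98) and 1.24 (0.88 to 1.68). For Col18a1 the levels were 2.64 (2.49 to 2.80) and 2.13 (1.66 to 2.70), with intervals that overlap. Loxl2 differed more, at 0.577 (0.506 to 0.654) in cluster 3 and 0.0309 (0.000783 to 0.172) in cluster 13. Col4a1 was above zero in 84.2% of tumor cells with Col4a2 and in 20.4% of those without it; the median total was 20517 UMIs in cells with both and 918 in cells with neither, so depth moved with this pairing.

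**Figure D2:**
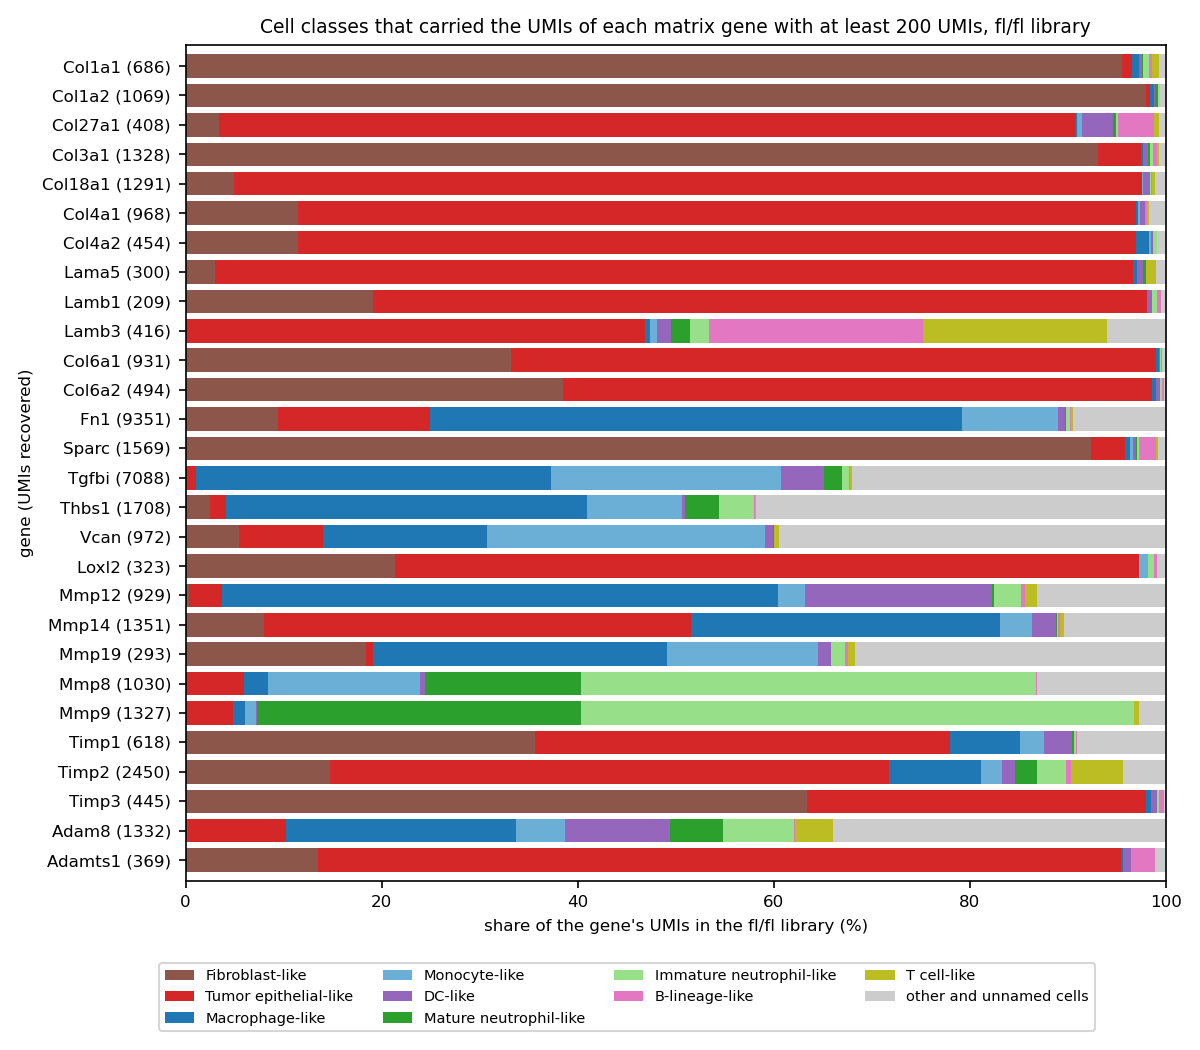
Share of each gene's UMIs (percent, horizontal axis) by cell class (colours) in the fl/fl library, for members shown with at least 200 UMIs (number in brackets). The fibrillar collagens Col1a1, Col1a2 and Col3a1 and Sparc are mostly Fibroblast-like, the basement membrane genes mostly Tumor epithelial-like, and Fn1 and Tgfbi mostly macrophage, monocyte and unnamed cells.

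Lamb3, a laminin beta chain of epithelial basement membranes, was also found outside the epithelium. It was above zero in 91 of 760 Tumor epithelial-like cells, 81 of 623 B-lineage-like cells, 8.57% of T cell-like and 5.42% of NK-like cells. Thinned to 500 UMIs per cell the shares were 1.90%, 3.21%, 1.24% and 1.46%. The annotated Lamb3 gene (chr1:193207699-193343878, forward strand) overlaps 2 noncoding transcripts on its own strand, 4930570N18Rik and Gm37691, and the values do not tell them apart.

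The glycoproteins split between fibroblasts and myeloid cells. Sparc, a collagen-binding protein, was above zero in 54 of 55 Fibroblast-like cells, with a level of at least 32.0 UMIs per 10000 (30.4 to 33.7), and in at most 2.42% of any other class. Fn1, the gene for fibronectin, was broad: it was above zero in 72.7% of Fibroblast-like, 62.5% of Macrophage-like, 50.7% of Monocyte-like and 43.8% of Tumor epithelial-like cells, against 1.77% of B-lineage-like cells. With each cell thinned to 500 UMIs, since depth differs between classes, the shares were 45.6% of Fibroblast-like, 41.3% of Macrophage-like and 17.4% of Tumor epithelial-like cells. Macrophage-like cells held 54.3% of its 9351 UMIs, tumor cells 15.5% and Fibroblast-like cells 9.43%. Of the UMIs of all 48 members counted, 41227 in all, Macrophage-like cells held 24.8%, Tumor epithelial-like cells 23.9% and Fibroblast-like cells 19.4%. The order of these 3 classes is not fixed, since the Fibroblast-like median stood at the cap for Sparc, Col1a1, Col1a2 and Col3a1.

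Among macrophages and monocytes Fn1 separated the clusters. Its level was 37.6 UMIs per 10000 (36.4 to 38.9) in cluster 10, macrophages led by Arg1, and 9.63 (9.12 to 10.2) in cluster 6, macrophages led by C1qa, C1qc and C1qb. In the monocyte clusters 2 and 17 it was 5.68 and 5.81, and in cluster 1 it was 4.37 (4.04 to 4.72). Without shared barcodes clusters 2 and 17 had 6.57 and 6.72, but the 16 cells left in cluster 1 had 20.3 (15.1 to 26.8), so the value of that cluster rests on its shared barcodes.

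Tgfbi, an adhesion protein induced by TGF-beta, varied less across these clusters. Its level ranged from 9.51 UMIs per 10000 in cluster 10 to 13.3 in cluster 1, and was above zero in 70.8% of Macrophage-like and 70.0% of Monocyte-like cells. Thbs1, the gene for thrombospondin 1, which activates latent TGF-beta, was at 4.72 (4.38 to 5.09) in cluster 1 and 4.69 (4.27 to 5.13) in cluster 10, and at 0.97 to 1.19 in clusters 2, 17 and 6. Without shared barcodes it was at 6.91 in cluster 1 and 0.61 in cluster 2. Vcan, the gene for versican, a large proteoglycan, had its lowest level among them in cluster 6, at 0.16 (0.10 to 0.24), and was between 1.24 and 1.92 in the other clusters. Without shared barcodes Vcan was at 4.06 in cluster 1 and 2.55 in cluster 2.

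**Figure D3:**
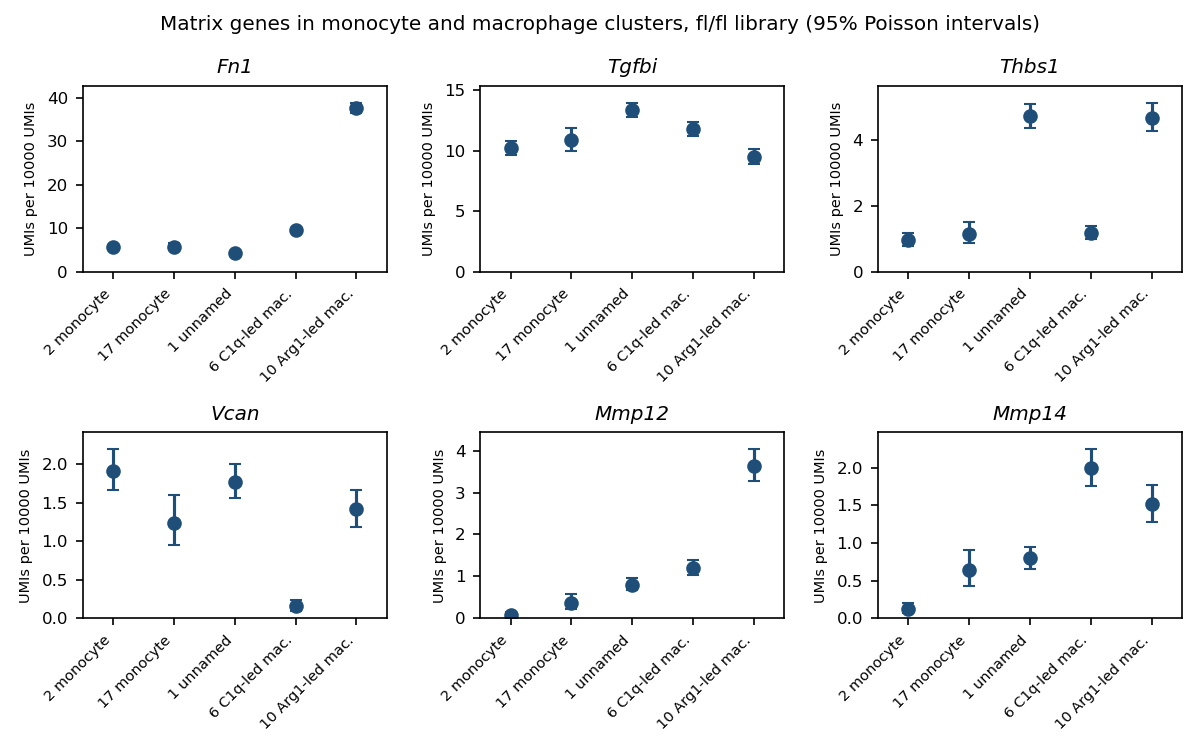
Levels of 6 members (UMIs per 10000 UMIs, exact Poisson 95% intervals) in the fl/fl cells of monocyte clusters 2 and 17, the unnamed cluster 1 and macrophage clusters 6 and 10. Fn1 and Mmp12 are highest in cluster 10, Vcan is lowest in cluster 6, and Tgfbi stays between 9.51 and 13.3.

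The MMPs differed in the cells that held them. Mmp14, a collagenase anchored in the cell membrane, was above zero in 38.8% of Macrophage-like, 36.4% of Fibroblast-like and 30.4% of Tumor epithelial-like cells. Thinned to 500 UMIs it was above zero in 7.06% and 5.35% of the Macrophage-like and Tumor epithelial-like cells. In the order Macrophage-like, Fibroblast-like and Tumor epithelial-like, the classes held 31.5%, 7.99% and 43.6% of its 1351 UMIs. Of all UMIs they held 11.2%, 2.14% and 21.9%. Mmp12, the macrophage elastase, was above zero in 18.1% of Macrophage-like and 13.5% of DC-like cells, against 0.32% of B-lineage-like cells. Its level was 3.63 UMIs per 10000 (3.27 to 4.03) in the Arg1-led cluster 10 and 1.20 (1.02 to 1.40) in the C1q-led cluster 6. Mmp13, a collagenase, was above zero in 7.19% of Macrophage-like cells, and Mmp12 was found in 57.6% of those cells but in 15.02% of the Macrophage-like cells without Mmp13. The median total was 7962 UMIs in cells with both, 3177 in cells with 1 of them and 3301 in cells with neither. In cluster 6 it was 8533 in the 11 cells with both and 2229 in cells with neither. In cluster 10 the order was reversed, at 1573.5 in the 8 cells with both and 4050 in cells with neither.

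Mmp2, the gelatinase often made by fibroblasts, was found in 18 fl/fl cells in all, 5 of them Fibroblast-like and 11 Macrophage-like. Mmp23 was above zero in 36.4% of Fibroblast-like and 1.82% of DC-like cells, and Mmp19 in 32.7% of Fibroblast-like and 13.1% of Macrophage-like cells. Mmp7, matrilysin, an epithelial protease, had 15 UMIs in 12 cells, all of them Tumor epithelial-like. It was not detected in 459 Macrophage-like cells, with an upper 95% bound of 0.80%.

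The granulocyte proteases are stored in neutrophil granules. Mmp8, neutrophil collagenase, and Mmp9, gelatinase B, were both at 0 in the 165 cells of cluster 23 (upper 95% bound 0.0621 UMIs per 10000), granulocyte progenitors led by Elane and Prtn3. In the immature neutrophils of cluster 12, led by Camp and Ngp, Mmp8 was at 0.121 UMIs per 10000 (0.0661 to 0.203) and Mmp9 at 0.751 (0.601 to 0.926). Both were far higher in cluster 14, immature neutrophils led by Ifitm6 and Ltf, at 7.33 (6.68 to 8.03) and 10.46 (9.68 to 11.3), and in cluster 19, mature neutrophils led by Retnlg, at 7.25 (6.16 to 8.47) and 10.9 (9.59 to 12.4).

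In cluster 15, mature neutrophils led by Ier3 and Cxcl2, the pair came apart: Mmp9 was at 9.78 (8.47 to 11.2) and Mmp8 at 0.34 (0.14 to 0.70). Thinned to 500 UMIs, the share of cells with Mmp8 was 22.8% in cluster 14, 24.9% in cluster 19 and 1.23% in cluster 15, and that with Mmp9 was 33.2%, 35.3% and 28.1%. Mmp8 was not limited to neutrophils: it was above zero in 24.9% of cluster 2 and 20.5% of cluster 1, where Mmp9 was found in 0.59% and 5.56% of cells. Without shared barcodes the Mmp8 shares were 36.4% of 129 cells and 12.5% of 16 cells. Over both clusters of the Monocyte-like class the share was 19.3%, against 17.6% with them.

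**Figure D4:**
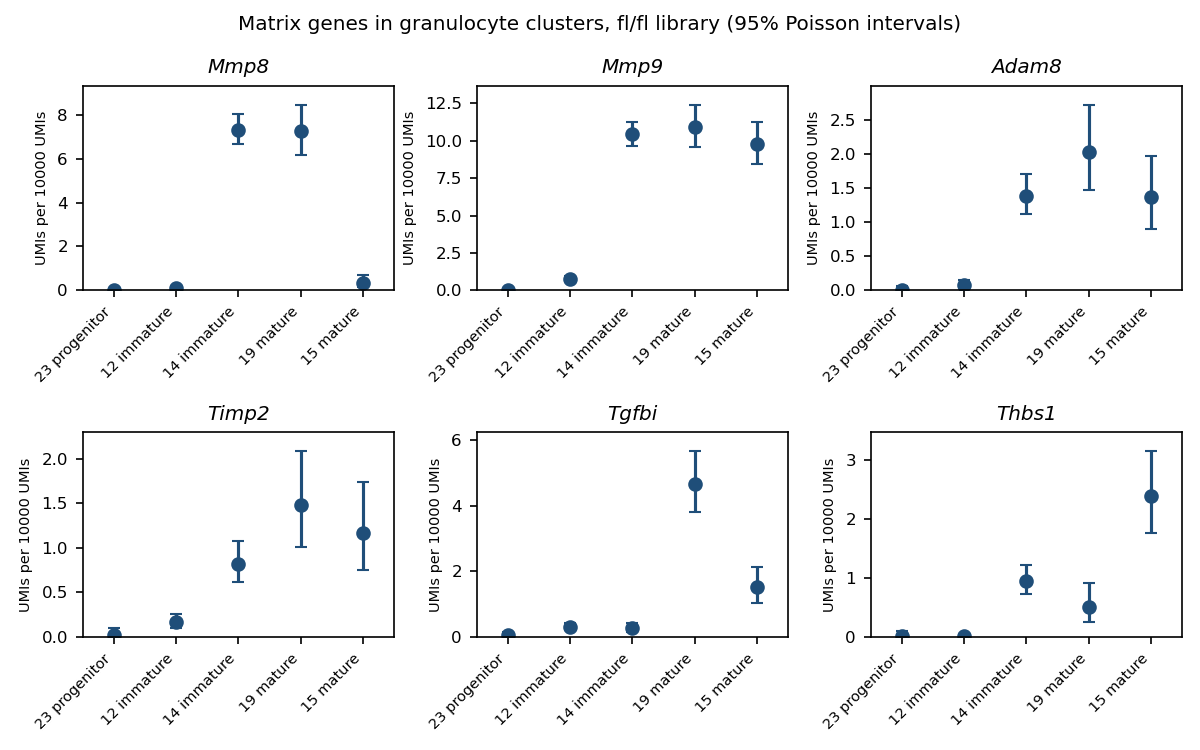
Levels of 6 members (UMIs per 10000 UMIs, exact Poisson 95% intervals) in the fl/fl cells of 5 granulocyte clusters, named by number and class. Mmp8 is high in clusters 14 and 19 only, Mmp9 in clusters 14, 19 and 15, Tgfbi peaks in cluster 19 and Thbs1 in cluster 15.

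Mmp8, Mmp12 and Mmp13 are neighbours on chromosome 9, but the class with the most UMIs was Immature neutrophil-like for Mmp8 (46.4%) and Macrophage-like for Mmp12 (56.7%) and Mmp13 (45.8%), so their promoters are printed for comparison. All are 300 bases on the forward strand of GRCm38.p6 from RefSeq: chr9:7558179-7558478 for Mmp8, chr9:7347124-7347423 for the second of 2 listed starts of Mmp12, and chr9:7272264-7272563 for Mmp13. Capitals mark TATAAA, or TTTATA where it reads on the other strand, and TGANTCA, the letters of an AP-1 element.
Mmp8: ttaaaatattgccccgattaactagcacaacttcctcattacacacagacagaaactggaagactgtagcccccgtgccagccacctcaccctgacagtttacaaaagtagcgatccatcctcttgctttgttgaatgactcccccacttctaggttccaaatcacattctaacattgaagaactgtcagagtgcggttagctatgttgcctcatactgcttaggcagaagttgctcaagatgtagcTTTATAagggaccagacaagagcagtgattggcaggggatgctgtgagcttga
Mmp12: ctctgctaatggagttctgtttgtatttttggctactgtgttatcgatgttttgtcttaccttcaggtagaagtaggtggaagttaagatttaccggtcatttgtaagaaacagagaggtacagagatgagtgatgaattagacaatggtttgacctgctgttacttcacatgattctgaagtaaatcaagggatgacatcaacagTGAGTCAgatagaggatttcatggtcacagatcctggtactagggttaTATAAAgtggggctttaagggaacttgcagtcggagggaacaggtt
Mmp13: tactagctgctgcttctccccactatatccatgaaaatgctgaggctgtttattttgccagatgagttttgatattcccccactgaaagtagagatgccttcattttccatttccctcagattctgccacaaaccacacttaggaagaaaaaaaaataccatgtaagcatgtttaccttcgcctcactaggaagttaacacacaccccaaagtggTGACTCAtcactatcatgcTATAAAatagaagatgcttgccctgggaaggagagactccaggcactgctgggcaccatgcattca
Mmp12 and Mmp13 both held an AP-1 match, 44 and 35 bases before the listed start, and Mmp8 held none in this window. Col6a1 and Mmp7 were the other members with a TGANTCA match on either strand. Such a match stood in 4 of 39 member promoters and in 7.81% of all promoters in the table. TNGCGTG, the core letters bound by AHR with its partner, was present in promoters of Adamts1, Mmp7, Tgfbi and Timp3. These were also 4 of 39 member promoters, against 5.07% of all promoters.

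The TIMPs, which bind MMPs and block them, were above zero most often in Fibroblast-like cells. Timp1, Timp2 and Timp3 were above zero in 54.5%, 65.5% and 50.9% of these cells, and Timp1 was also in 152 of 760 Tumor epithelial-like cells, Timp2 in 43.8% and Timp3 in 8.68% of them. Timp2, which also helps to activate pro-MMP2, was the most widespread, above zero in at least 5% of cells in 10 of the 13 named classes. Timp3, which binds to the matrix itself, had 63.4% of its 445 UMIs in fibroblasts and 34.6% in tumor cells. Among macrophages Timp2 went with cluster 6, at 1.28 (1.098 to 1.48), over cluster 10, at 0.53 (0.40 to 0.70).

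Among the ADAM genes, Adam8 was spread over several classes and Adam23 was found mainly in dendritic cells. Adam8, a sheddase of leukocytes, was above zero in 26.4% of Macrophage-like, 19.4% of Mature neutrophil-like and 19.2% of DC-like cells, in 76 of 760 Tumor epithelial-like cells, and in 59.9% of cluster 1, most of whose cells have shared barcodes. Adam23, a member without protease activity that binds integrins, had 81.0% of its 79 UMIs in DC-like cells, and was above zero in 32.1% of cluster 29, the migratory dendritic cells led by Fscn1 and Ccr7, and in 14.9% of cluster 22, best matched by type 1 dendritic cell markers. Adamdec1, a gene of gut macrophages, was found in 10 Macrophage-like cells, 2.18% of them. Adam12 differed, with 24 of its 40 UMIs in Fibroblast-like cells and 16.4% of those cells above zero.

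ADAMTS enzymes trim procollagen and proteoglycans. Adamts2, the procollagen N-propeptidase, and Adamtsl1 were found in 17 and 16 cells, all of them Fibroblast-like, with 26 and 22 UMIs. Adamts9 had 61.0% of its 82 UMIs there. Adamts1, a versican-cutting enzyme, had 81.8% of its 369 UMIs in Tumor epithelial-like cells, of which 15.9% were above zero.

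Partner genes of the matrix were followed in lists chosen with earlier results of these data known. Of the 7 measured genes for collagen making, 7 were above zero in at least 5% of Fibroblast-like and 5 in at least 5% of Tumor epithelial-like cells. Of 21 proteoglycans and other matrix proteins the counts were 18 and 10, of 20 matrix receptors 14 and 13, of 24 other degrading enzymes and inhibitors 11 and 8, and of 5 genes of the TGF-beta axis 4 and 4. Over all genes 63.5% and 60.6% passed this limit, which the receptors' counts are close to and those of the degrading enzymes lie below. Serpinh1, the collagen chaperone, was above zero in 74.5% of Fibroblast-like cells, Mgp in 78.2% and Dcn, decorin, in 76.4%, but these genes also named the cluster. In Tumor epithelial-like cells Spp1, osteopontin, was above zero in 90.5%, and in Macrophage-like cells the collagen receptor gene Lair1 in 51.2%.

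The comparison of the libraries asks whether matrix genes differ when Ahr is deleted in LysM-Cre-positive cells. A member was counted as higher or lower in the cKO library if its mean scaled value in a class differed by at least 0.1, where the unit is 1 SD of the gene over all cells, and such differences are not changes in expression. Estimates with the inferred correction of the cKO library removed were made in 2 forms, and counts with the correction removed are of the first form. An estimate was possible only for genes that no cluster of the class held above zero in 40% or more of its fl/fl cells. Some single clusters of compared classes are described with fewer cells: clusters 26, 27 and 29 held 32, 16 and 22 cKO cells. Classes with fewer than 50 cells in a library were not compared. This concerns the Fibroblast-like class, whose 9 cKO cells were 0.197% of that library (0.0900 to 0.373) against 1.06% (0.80 to 1.38) of the fl/fl library. Of those 9 cells, 9 stood at least 1 unit above zero for Sparc and Col3a1 and 8 for Col1a1 and Col1a2. All counts of cells at least 1 unit above zero use the deposited values, so those of the cKO library carry the correction.

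In Macrophage-like cells 5 of the 51 members were higher and 2 lower in the cKO library, where 7.05% and 4.3% of all genes were. With the correction removed 3 were higher and 1 lower of 47 members with an estimate, and 11.1% and 1.7% of such genes were. Fn1 was 0.35 higher, with means of 1.42 ± 2.29 and 1.77 ± 2.62 (SD over cells, which are not replicates) in the fl/fl and cKO libraries. The difference was 0.71 in the Arg1-led cluster 10 and 0.14 in the C1q-led cluster 6. Cells at least 1 unit above zero for Fn1 were 48.8% of fl/fl and 51.1% of cKO cells in the class. They were 73.4% and 83.0% in cluster 10, but 29.3% and 27.4% in cluster 6. Tgfbi was lower, at -0.31, with means of 0.90 ± 1.46 and 0.59 ± 1.36, and was at -0.31 in cluster 10 and -0.32 in cluster 6. No estimate with the correction removed could be made for these 2 genes.

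Timp2 was 0.20 higher (0.29 and 0.22 with the correction removed), with 0.30 in cluster 6 and 0.04 in cluster 10. Mmp13, at 0.17, and Timp1, at -0.11, did not keep their values with the correction removed: Mmp13 became -0.02 and -0.09, and Timp1 became 0.03 and -0.10. Mmp12 differed in opposite directions in the clusters, at 0.32 in cluster 6 (0.19 and 0.14 with the correction removed) and -0.34 in cluster 10 (-0.63 and -0.61). In cluster 10, however, cells at least 1 unit above zero were 44 of 203 fl/fl and 31 of 141 cKO cells, 21.7% and 21.99%. Adamdec1 and Mmp2, the other 2 counted as higher, passed zero in fewer than 5% of the cells.

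In DC-like cells 1 member was higher and 2 were lower, where 8.5% and 6.85% of all genes were. Of 51 members with an estimate, 1 was higher and 1 lower after removal of the correction, where 11.8% and 3.09% of genes were. Mmp12 was lower, at -0.33, with means of 0.34 ± 1.65 and 0.01 ± 0.52, and was at -0.36 and -0.37 with the correction removed. Without shared barcodes (41 cells of fl/fl, 36 of cKO) it was at -0.36. It was at -0.73 in both clusters best matched by type 1 dendritic cell markers. Cells at least 1 unit above zero for Mmp12 were 20 of 114 fl/fl and 4 of 96 cKO cells in cluster 22, and 15 of 65 and 0 of 16 in cluster 27. Adam23 was at -0.27, but became 0.41 and 0.21 with the correction removed. As deposited it was at -0.70 in cluster 22, -0.44 in cluster 29 and 0.91 in cluster 27. Cells at least 1 unit above zero for Adam23 were 17 of 114 fl/fl and 15 of 96 cKO cells in cluster 22, 14.9% and 15.6%. They were 17 of 53 and 10 of 22 in cluster 29, and 4 of 65 and 4 of 16 in cluster 27. The share of such cells was thus not lower in the cKO library in any of these clusters. Mmp23, found in fewer than 5% of the fl/fl cells, was the one counted as higher.

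In Monocyte-like cells 2 members were higher and 0 lower, where 4.55% and 3.1% of all genes were. With the correction removed 0 were higher and 1 lower of 49, where 6.03% and 1.59% of genes were. The 2 higher as deposited were Vcan, by 0.18, and Mmp19, by 0.16. With the correction removed Vcan became -0.07 and -0.16 and Mmp19 became -0.02 and -0.13. Without shared barcodes, which made up 248 of 517 fl/fl and 243 of 398 cKO cells here, the deposited differences were 0.26 and 0.14.

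The class means of the neutrophil proteases Mmp8 and Mmp9 were higher in the cKO library, but not in every cluster. In Immature neutrophil-like cells 5 members were higher and 0 lower, where 4.95% and 7.6% of all genes were, and in Mature neutrophil-like cells 3 were higher and 0 lower, where 5.3% and 4.65% were. With the correction removed the immature class had 2 higher and 0 lower of 49 (3.75% and 6.38% of genes), and the mature class 1 and 1 of 48 (10.3% and 1.4% of genes). In the immature class Mmp8 differed by 0.89, with means of 0.68 ± 2.39 and 1.57 ± 2.99, and Mmp9 by 0.58. This class joined cluster 12, with 207 fl/fl and 86 cKO cells, and cluster 14, with 126 and 156, which differ in both genes as shown above. With the cluster sizes of the fl/fl library as weights the differences were 0.17 and -0.02.

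Within cluster 14 Mmp8 differed by 0.47, and 47 of 126 fl/fl and 83 of 156 cKO cells stood at least 1 unit above zero. Mmp9 differed by 0.13 there, with 75 of 126 and 92 of 156 cells, 59.5% and 58.97%, at least 1 unit above zero, and was at -0.11 in cluster 12 (0.07 and 0.02 with the correction removed). Adam8 and Timp2 differed by 0.17 and 0.11 in the immature class, and by 0.05 and 0.03 when weighted. The estimates without the correction were 0.16 and 0.12 for Adam8 and 0.15 and 0.13 for Timp2. In the mature class Mmp9 was 0.43 higher, with means of 1.83 ± 2.68 and 2.27 ± 2.48, by 0.33 in cluster 15 and 0.51 in cluster 19, and by 0.41 when weighted. Cells at least 1 unit above zero were 136 of 279 fl/fl and 156 of 234 cKO cells, 48.7% and 66.7%. Cells are not replicates, and the cKO share carries the correction. Mmp8 in the mature class differed by 0.13, by 0.02 when weighted, and by -0.0768 and -0.0682 with clusters at a Leiden resolution of 1 and from the deposited UMAP. No estimate with the correction removed could be made for Mmp8 and Mmp9 over either class.

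In Tumor epithelial-like cells 14 members were higher and 9 lower, where 27.7% and 12.7% of all genes were. Of 46 members with an estimate, 17 were higher and 2 lower after removal of the correction, where 28.4% and 5.26% of genes were. The median deposited difference was 0.00374 over the 51 members and 0.00459 over all genes. The 3 largest deposited differences were of basement membrane and type VI collagen genes, with Col4a2 at 0.86, Col6a1 at 0.57 and Lama5 at 0.53, and Col4a1 was at 0.44 and Col27a1 at 0.32. With the correction removed Col4a2 was at 0.21 and 0.01, while Lama5 was at 0.39 and 0.32, Col6a1 at 0.27 and 0.19 and Col27a1 at 0.23 and 0.15. In cluster 3 alone Col4a2 was at 0.72 as deposited but at 0.09 and -0.14 with the correction removed. Cells at least 1 unit above zero for Col4a2 were 139 of 426 fl/fl and 76 of 131 cKO cells in cluster 3. In cluster 26, a small cluster, they were 3 of 53 and 25 of 32. These counts are of the deposited values and are no check on the correction. Other basement membrane genes were lower as deposited: Col18a1 was at -0.16, with no estimate possible, and Lamb1 at -0.17, or 0.17 and 0.05 with the correction removed. Timp3 and Adamts1 were at -0.25 and -0.24, but Timp3 became 0.10 and -0.09 and Adamts1 0.39 and 0.23.

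The tumor cells of the libraries came from different clusters: cluster 13 held 264 of 760 fl/fl but 20 of 183 cKO cells, and cluster 3 held 426 and 131. With the cluster sizes of the fl/fl library the difference was 0.48 for Col4a2, 0.47 for Col6a1, 0.20 for Lama5, 0.10 for Col4a1 and 0.06 for Col27a1. Among partner genes the laminin receptor Itgb4 was 0.78 higher and Itga3 0.47 higher, and Pcolce, the procollagen C-proteinase enhancer, was at -0.64 but at 0.26 with the correction removed. Of 77 partners 29 were higher and 6 lower, where 27.7% and 12.7% of all genes were. When only genes detected in 5% or more of the fl/fl tumor cells were counted, 39.1% were higher and 16% lower. The partner count was not limited to such genes, so it does not set the partners apart from other genes.

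In Erythroid-like cells 2 members were higher and 17 lower, where 20.5% and 21.3% of all genes were. Of 51 members with an estimate, 5 were higher and 18 lower after removal of the correction, where 23.3% and 16.4% of genes were. Those above zero in at least 5% of cells were Fn1 at -0.14, Timp2 at -0.10 and Tgfbi at -0.10, and at -0.14, -0.11 and -0.10 with either form of the removal. Possible doublets, cells with markers of 2 cell families, were 14 of 96 fl/fl and 3 of 93 cKO cells there, and without them the 3 values were -0.15, -0.12 and -0.098. In B-lineage-like, T cell-like and NK-like cells 0 members differed by 0.1 in either direction. Of all genes 3.8% were higher and 2.4% lower in B-lineage-like cells, 2.9% and 8.6% in T cell-like cells and 7.05% and 6.55% in NK-like cells. With the correction removed 0 members were counted in B-lineage-like (4.05% and 0.426% of genes) and T cell-like cells (3.76% and 2.84%), and 1 higher and 1 lower in NK-like cells (12.2% and 2.99%). These counts are of the first form. The second form counted 2 members as lower in B-lineage-like cells, among them Lamb3 at -0.14, against -0.01 as deposited, and 0 higher and 1 lower in NK-like cells.

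**Figure D5:**
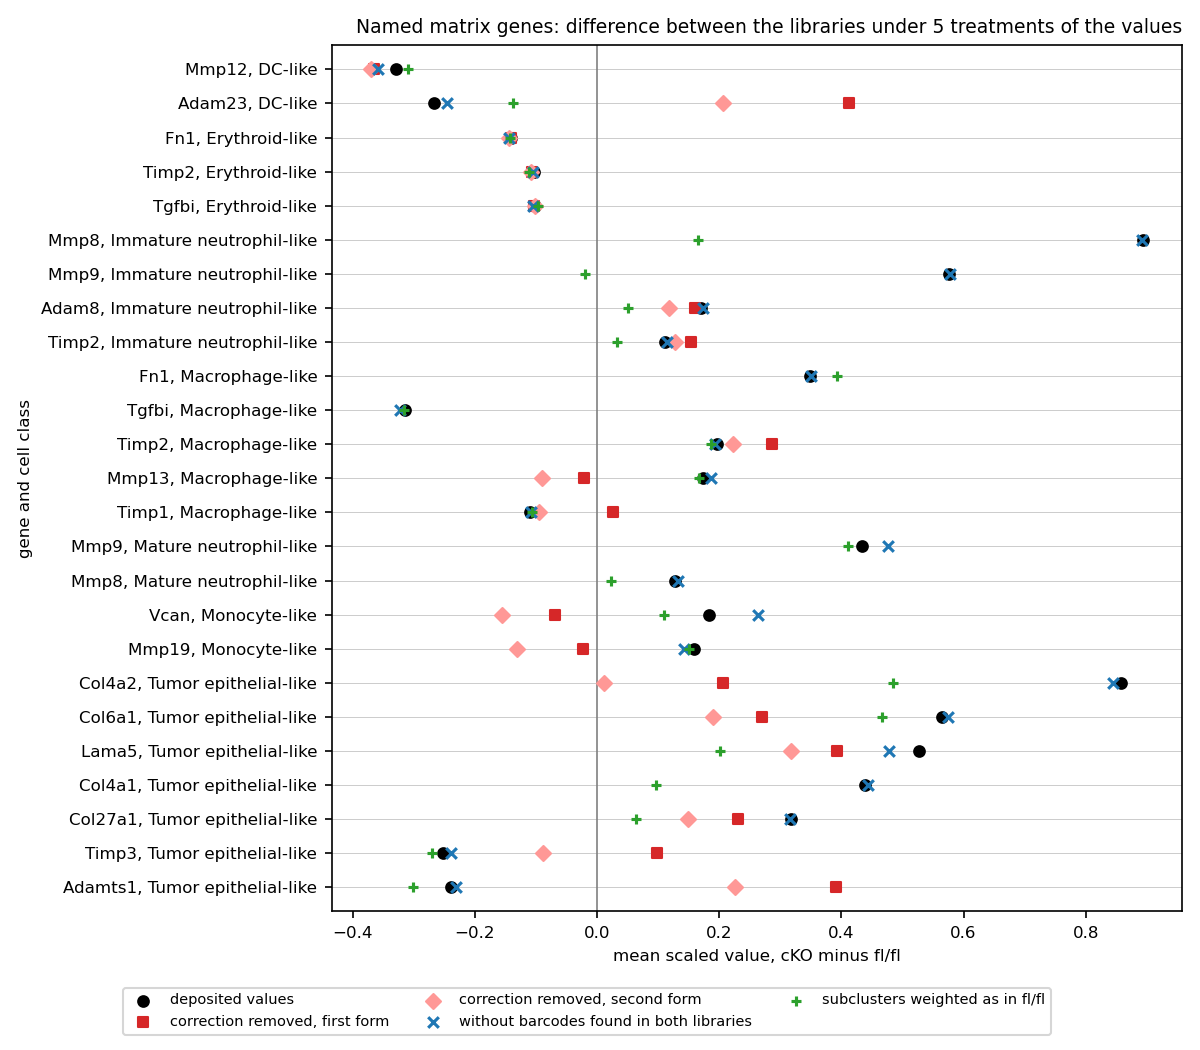
Difference of the mean scaled value, cKO minus fl/fl (horizontal axis, SDs of the gene), for selected members, at most 8 per class by size of the deposited difference. Values are as deposited (black), with the correction removed in 2 forms (red and pink, where possible), without shared barcodes (blue) and with clusters weighted as in the fl/fl library (green). Mmp12 in DC-like cells stays near -0.33 throughout, while Adam23, Mmp13, Vcan, Mmp19 and Adamts1 change sign with the correction removed. Timp1 and Timp3 change sign with the first form only.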

How the data were processed

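Droplet libraries of single cells were analysed, 1 per genotype. Cell Ranger 3.0.0, Seurat 3.1.4 and the mouse builds mm10 and GRCm38 are named, without role or order, per the submitters' processing notes. The deposited values are a score per gene and cell, scaled to unit spread, capped at 10 and reaching down to -25.91. That the cKO library was corrected toward the fl/fl library is inferred from the values. No source used here states it.

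A gene's lowest fl/fl value was taken as zero. Whole UMI counts were recovered for all 5196 fl/fl cells and 1922 genes, with 99.9927% of 791238 values within 0.01 of a whole number. The work was done in Python 3.11.15 with leidenalg 0.10.2, igraph 0.11.9 and scikit-learn 1.9.0, and with scipy 1.17.1, numpy 2.4.6 and pandas 2.3.3. Cells were clustered on 30 principal components without the members, with 15 neighbours and a Leiden resolution of 2, into 35 clusters. A cluster was named where its marker score reached 0.5, the next class stayed below 0.5 times that score and at least 3 markers were up.

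The correction was removed by subtracting the 0.3 quantile of a gene over the 30 nearest cKO cells. The second form used 50 cells and a quantile of 0.5 times the share at zero. This step was tested on simulated data. Possible doublets, 197 fl/fl and 102 cKO cells with markers of 2 families, were kept. Shares across depths were also given with cells thinned to 500 UMIs.

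Members were named where at least 5% of the fl/fl cells of a class were above zero and, between the libraries, where the difference was also at least 0.1, at most 8 per class, with at most 4 partner genes per class. Cluster values, pairs, promoters and single members outside this rule were chosen after their values were seen. The members and lists were chosen with earlier results of these data known. Overlapping genes cannot be told apart: 15 members overlap another gene on their own strand. The values of 1 member are not reported here, though it is included in the counts over all members.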

Additional observations from a re-analysis of the deposited data

How the results depend on the processing

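Of 161 alternative values for the counts by class, 124 stayed within 1.5 times the reported count and 37 moved. In Macrophage-like cells the 5 higher members became 2 at a difference of 0.2, 3 with the correction removed, 1 with its second form and 3 among members in at least 5% of cells. The 2 lower became 1 at 0.2, without possible doublets and with either form. In Monocyte-like cells the 2 higher became 1 with clusters from the deposited UMAP, 0 at 0.2 and with either form, and 4 without shared barcodes. The 0 lower became 1 and 3 with the 2 forms and 2 without shared barcodes. In Mature neutrophil-like cells the 3 higher became 1 at 0.2 and with either form. The 0 lower became 1 at a Leiden resolution of 1, with all genes clustered, with the UMAP, with the first form and without shared barcodes, and 2 with the second form. In Immature neutrophil-like cells the 5 higher became 3 with the UMAP and 2 at 0.2 and with either form. In Tumor epithelial-like cells the 14 higher became 9 at 0.2 and 6 with the second form, and the 9 lower became 4 at 0.2, 2 with the first form and 5 among members in at least 5% of cells. In DC-like cells the 1 higher became 2 with 15 principal components and 0 among members in at least 5% of cells, and the 2 lower became 1 with the first form. Of 220 alternative values of single differences, 15 changed sign. With the first and second forms these were Adam23 in DC-like cells (0.41 and 0.21), Mmp13 (-0.0220 and -0.0897) in Macrophage-like cells, Vcan (-0.0692 and -0.16) and Mmp19 (-0.0221 and -0.13) in Monocyte-like cells and Adamts1 (0.39 and 0.23) in Tumor epithelial-like cells. With the first form alone they were Timp1 in Macrophage-like cells (0.0259) and Timp3 in Tumor epithelial-like cells (0.10). Mmp8 in Mature neutrophil-like cells was at -0.0768 at a resolution of 1 and -0.0682 with the UMAP, and weighted Mmp9 in Immature neutrophil-like cells was at -0.0195. The cause was not tested. Leaving out shared barcodes, chosen after seeing the data, changed the sign of 0 of 26. No paired analysis was possible because each genotype has 1 library.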
